A study of Mus musculus with 96 samples.

Results

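The growth hormone and IGF axis of the liver was described through 8 of the 24066 genes measured: Igf1, Igfals, Igfbp1, Igfbp2, Igfbp3, Igfbp4, Ghr and Socs2. The genes were chosen by name, for their place in the axis, and were read in every library. The study asked whether a shifting light schedule in pregnancy changes the livers of mothers, fetuses and adult offspring, and it sequenced liver poly(A) RNA of C57BL/6J mice, an inbred laboratory strain with no engineered allele named in the labels. For chronically phase-shifted (CPS) mothers lights came on 8 h earlier every 5 days, in pregnancy only, and control (CON) mothers stayed on 12 h of light and 12 h of dark. Livers were taken from CPS and CON mothers, from CPS and CON fetuses, and from male offspring of both kinds of mother that ate a high-fat or a low-fat diet for 12 weeks, beginning when they were 4 weeks old. Each of these 8 arms held 12 libraries, 3 at each of ZT0, ZT6, ZT12 and ZT18, ZT (Zeitgeber time) being the hours since the lights came on. The day of gestation, the sex and any pooling of fetuses, the pairing of fetuses with mothers and the time since the last advance were not stated. The litter of each offspring was not stated either. No label says that the 3 libraries of a group came from different mice or litters, so p-values measure the spread between libraries. The schedule was given to mothers, and the p-values do not measure the spread between mothers or litters of offspring.

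Growth hormone from the pituitary binds its receptor on hepatocytes, which activates JAK2 and the transcription factor STAT5. STAT5 drives transcription of Igf1, the growth factor that carries much of the hormone's effect on body growth, of Igfals, whose protein holds IGF1 in a long-lived complex with IGFBP3 in blood, and of Socs2, an inhibitor that dampens signalling by the receptor. Before birth growth hormone has little part in growth, and IGF2 rather than hepatic IGF1 is the main ligand. The IGF binding proteins set how much ligand is free. Igfbp1 is strongly repressed by insulin and rises with fasting, Igfbp2 is another carrier that falls with insulin and growth hormone, and Igfbp4 is a carrier made mainly by hepatocytes.

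In the mouse genome (GRCm38, GENCODE M21) Igfbp1 lies at chr11:7197782-7202546 on the plus strand and Igfbp3 at chr11:7206086-7213923 on the minus strand, with 3539 bp between their ends. Igfbp4 is also on chromosome 11, at 99041244-99054392. Igf1 (chr10:87858265-87937042, plus strand) and Socs2 (chr10:95385362-95417180, minus strand) share chromosome 10. Igfbp2 lies at chr1:72824503-72852474 and Igfals at chr17:24865997-24882010, both on the plus strand, and Ghr at chr15:3317760-3583492 on the minus strand. RefSeq promoter windows (GRCm38.p6) were matched for 7 of the 8 genes. Socs2 had no window, so its promoter was not searched. The 250 bases upstream of the start site were searched on both strands for 3 motifs, in the window nearest to the gene start. The start site of that window lay 11847 bases from the gene start given above for Igfals, which had 3 windows, and 2846 bases for Igf1. CAAAACA, the insulin response motif, occurred in 5.6% of 32851 such windows and, of the 7, only in that of Igfbp1. CACGTG, the E-box bound by clock and other basic helix-loop-helix factors, occurred in 6.0% of windows and only in that of Igfbp2. TTCNNNGAA, the STAT motif, occurred in 7.0% of windows and, of the 7, only in that of Igfals. The windows of Igfbp1 (chr11:7197537-7197786) and Igfbp2 (chr1:72824230-72824479) are shown because, of the 8 genes, Igfbp1 was most above the mothers in fetuses and Igfbp2 differed most with maternal schedule in high-fat offspring. Both are on the plus strand and capitals mark the motif, which in Igfbp1 begins 108 bases before the start site. A match of letters is a description and not evidence of binding.
Igfbp1: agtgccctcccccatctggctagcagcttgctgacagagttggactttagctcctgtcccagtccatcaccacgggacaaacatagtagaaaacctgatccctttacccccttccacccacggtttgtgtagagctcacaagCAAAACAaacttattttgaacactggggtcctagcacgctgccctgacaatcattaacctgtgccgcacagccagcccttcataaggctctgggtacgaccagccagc
Igfbp2: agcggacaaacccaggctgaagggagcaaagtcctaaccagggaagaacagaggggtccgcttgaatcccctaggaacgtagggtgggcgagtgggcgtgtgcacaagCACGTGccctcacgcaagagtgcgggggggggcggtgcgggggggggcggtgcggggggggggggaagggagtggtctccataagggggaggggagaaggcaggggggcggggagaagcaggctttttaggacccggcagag

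Values are FPKM, fragments per kilobase of transcript and per set number of mapped fragments, divided by a scaling factor per library. The tables hold no counts, so depth is unknown. The summed FPKM of a library was 619897 to 804453 in fetuses, 535912 to 612061 in mothers and 497208 to 742626 in offspring. All 8 hepatocyte markers reached a median of at least 1 FPKM in every arm, all 5 hepatoblast markers did so in both fetal arms, and none was at 0 throughout an arm. The CON high-fat offspring library ZT0 replicate 1 stands apart: 8554 genes were above 0 in it, against 15074 in the next lowest library, and 1736 genes were listed at 0 that had at least 1 FPKM in both other replicates. Igfbp3 and Socs2 are among the genes listed at 0 there. For member changes of the main fit printed below that use this library, a result without it is also given. It is a log2 change, except for the diet change of Igf1 in CON offspring, where it is an adjusted p. Changes under other settings, such as values as deposited, are given only with it.

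Levels of Ghr, Igf1, Igfals and Igfbp4 differed far more between fetuses and the other stages than between schedules or diets. Between mothers and offspring Igf1 was level, with medians of 147 and 148 FPKM. Mothers were pregnant females and offspring were adult males on an assigned diet. Age, sex, pregnancy and diet thus differ along with stage and cannot be told apart here, and no test compared offspring with mothers. The authors deposited the arms as separate tables, and what differs between tables cannot be told apart from what differs between arms. Ghr, the growth hormone receptor, was the most abundant member in CPS mothers, with a lowest, median and highest value of 632, 1097 and 1868 FPKM, and it was at 344, 657 and 1373 FPKM in CON mothers. In offspring, leaving out the library that stands apart, Ghr ran from 77.5 to 244 FPKM over 47 libraries with a median of 188, and in fetuses from 10.9 to 25.3 FPKM with a median of 18.8. The 3 stages did not overlap for this gene. Within offspring the order of means was 201 FPKM in CPS high-fat, 192 in CON high-fat, 171 in CPS low-fat and 169 in CON low-fat, and each neighbour differed by less than 1 SD.

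Igf1, the ligand, was at 116, 155 and 211 FPKM in CPS mothers (lowest, median, highest), 81.5, 132 and 164 in CON mothers, and 89.6 to 236 in offspring with a median of 148. Fetal livers held 1.54 to 4.80 FPKM with a median of 2.50, below every other library. Igfals had medians of 4.21 FPKM in fetuses, 67.5 in mothers and 37.9 in offspring, and fetuses again lay below all others. Igfbp4 had medians of 146, 859 and 559.9 FPKM in the same 3 stages, with a fetal maximum of 232 below the lowest offspring value of 276.

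Igfbp1 was highest in fetuses. Its median was 377 FPKM in fetuses, 53.0 in mothers and 17.2 in offspring, and the ranges overlapped (82.6 to 1200.3, 12.9 to 263 and 3.30 to 121 FPKM). Its SD was 53.6% to 102% of the mean over the 8 arms, and no neighbours within a stage differed by as much as 1 SD. Igfbp2 had its highest means in CPS mothers (370.4 ± 80.2 FPKM, SD, n = 12) and CON mothers (405 ± 84), and its lowest in CPS high-fat offspring (146 ± 63) and CPS fetuses (145 ± 165). Igfbp3 was a low transcript throughout, from 11.9 ± 2.5 FPKM in CON fetuses to 4.91 ± 1.8 in CPS high-fat offspring. Socs2 had medians of 4.79 FPKM in fetuses, 20.6 in mothers and 5.81 in offspring, with overlapping ranges.

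**Figure D1:**
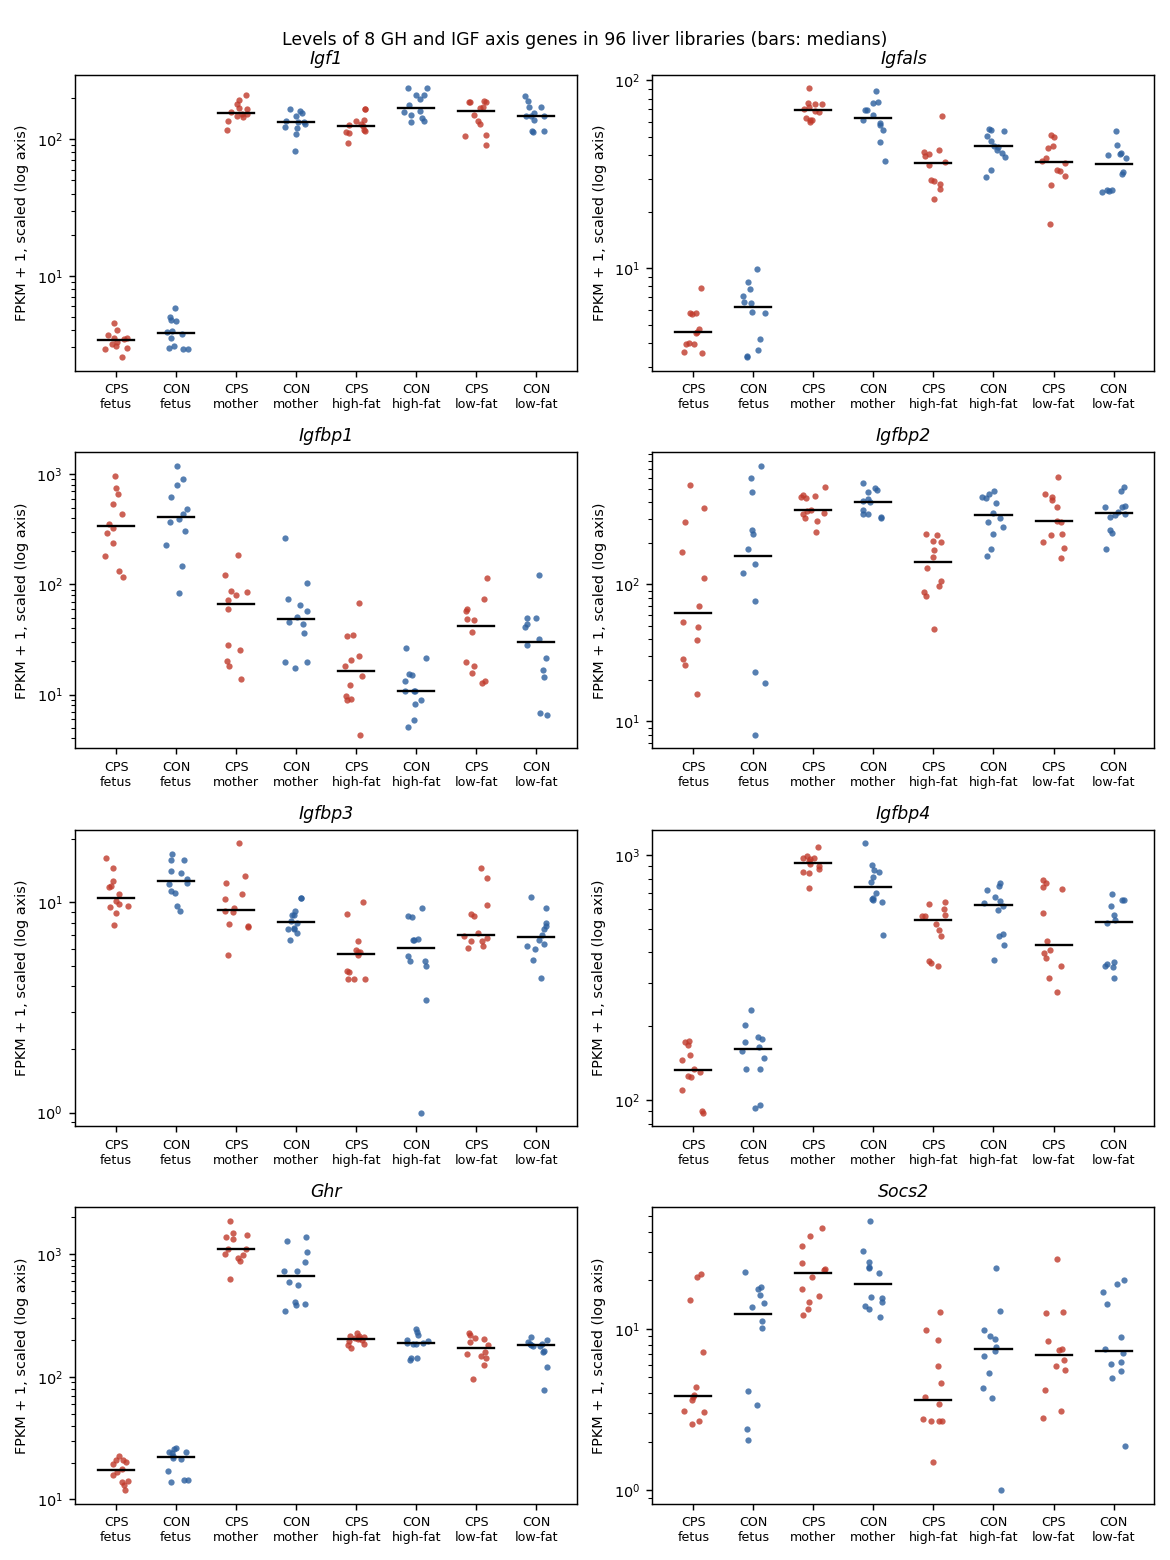
FPKM + 1 on a log axis for each of the 8 genes, with 1 point per library, arms along the horizontal axis and short bars at the arm medians. Fetal libraries lie below all mothers and offspring for Igf1, Igfals, Igfbp4 and Ghr, and above most of them for Igfbp1, whose median is 377 FPKM in fetuses and 17.2 in offspring.

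Fetal livers had far less Igf1 and Ghr mRNA than the livers of the mothers and far more Igfbp1. In CON animals all 8 genes passed the test between fetuses and mothers, 2 higher and 6 lower, where 85.3% of 12268 genes passed, 50.1% higher and 35.1% lower (limma, Benjamini-Hochberg adjusted p under 0.05, here and below). In CPS animals 7 passed, 1 higher and 6 lower, where 85.9% of genes passed, 50.4% higher and 35.5% lower. The median log2 difference of the 8 genes was -2.48 in CPS and -2.00 in CON animals, beside 0.18 and 0.17 over all genes tested. In bulk liver, fewer cells of a type and less RNA per cell cannot be told apart.

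Igf1 averaged 2.39 ± 0.53 FPKM in CPS fetuses and 160.3 ± 26 in CPS mothers (SD, n = 12 each), and 2.94 ± 0.95 FPKM in CON fetuses and 132 ± 23 in CON mothers. The log2 difference was -5.57 ± 0.11 (SE) in CPS and -5.09 ± 0.11 in CON animals, with adjusted p of 7.5e-33 and 1.39e-31. Ghr averaged 16.3 ± 3.5 FPKM in CPS fetuses and 1179 ± 337 in CPS mothers, and 19.8 ± 4.6 FPKM in CON fetuses and 725 ± 355 in CON mothers. Its log2 differences were -6.07 ± 0.18 and -5.01 ± 0.18, a fold of 67.1 and 32.1 lower in fetuses. Igfals had log2 differences of -3.89 (CPS) and -3.44 (CON) and Igfbp4 of -2.80 and -2.28. Igf1, Ghr, Igfals and Igfbp4 had no overlap between fetuses and mothers. How many of all genes also had none was not counted, and 85.9% (CPS) and 85.3% (CON) of genes passed here. The lack of overlap is therefore a description and not a result about these genes.

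Igfbp1 was higher in fetuses, at 415 ± 266 FPKM in CPS fetuses and 65.4 ± 51 in CPS mothers, and at 496 ± 330.3 FPKM in CON fetuses and 65.5 ± 67 in CON mothers. The fold was 6.90 (adjusted p = 3.85e-08) in CPS and 8.05 (adjusted p = 7.88e-09) in CON animals. Higher values stood in 12 of 12 CPS fetuses and 11 of 12 CON fetuses than the mean of mothers at the same ZT. Igfbp3, its neighbour on chromosome 11, was 1.54-fold higher in CON fetuses (adjusted p = 0.000117, 12 of 12 libraries). In CPS animals the log2 difference of Igfbp3 was 0.17 (95% interval -0.12 to 0.45, adjusted p = 0.257), and without the CPS mother library ZT6 replicate 2 it was 0.29 and passed (adjusted p = 0.0282). In values as deposited, where all genes together had a median of 0.64, it was 0.73 and passed as well (adjusted p = 1.43e-05). Igfbp2 and Socs2 were lower in fetuses on average, with log2 differences of -2.15 and -1.97 in CPS and of -1.72 and -1.20 in CON animals, but 2 or 3 of the 12 fetal libraries lay above the mean of the mothers for each gene in each arm.

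Other IGF genes passed in both directions. Of 12 tested genes among IGF ligands, receptors and carriers outside the 8, 11 passed in CON animals, 8 higher and 3 lower in fetuses, and 11 in CPS animals, 7 higher and 4 lower. These counts lie near the shares over all genes, 85.3% and 85.9% passing with 50.1% and 50.4% higher. Igf2, the main ligand before birth, averaged 752 ± 155 FPKM in CON fetuses and 0.122 ± 0.12 in CON mothers. H19, the imprinted noncoding RNA beside Igf2, averaged 4341 ± 1082 and 0.447 ± 0.80 FPKM in CON fetuses and CON mothers. Igf2bp3 and Igf2bp2, RNA-binding proteins named for Igf2 mRNA, were higher by 2.86 and 1.88 on the log2 scale. Among 17 tested genes of growth hormone and STAT5 signalling, 6 were higher and 6 lower in CON fetuses, and 11 and 5 in values as deposited. Grb10, an imprinted adaptor that restrains insulin and IGF receptors, averaged 188 ± 42 FPKM in CON fetuses and 0.640 ± 0.093 in CON mothers. Prlr, the prolactin receptor, averaged 6.35 ± 5.5 and 551 ± 183 FPKM in CON fetuses and CON mothers, and Hnf4a, a hepatocyte transcription factor, averaged 32.8 ± 8.1 and 121 ± 14.

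Cell type markers moved with stage as well, where 50.1% of all genes were higher and 35.1% lower in CON fetuses. The summed level of 7 erythroid markers was 1039 to 2158 FPKM in CON fetuses and 12.7 to 73.1 in CON mothers, and 7 of 7 were higher. The sum of 8 hepatocyte markers was 19388 to 63495 FPKM in CON fetuses and 124940.3 to 176656 in CON mothers, with 7 of 8 lower and a median log2 difference of -2.15. No marker of either list was at 0 throughout an arm, and the part of cell makeup in the differences of the 8 genes was not tested.

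Among fetuses, 3 of the genes were unusually uneven from library to library. Igfbp2 ran from 6.98 to 736 FPKM over the 24 fetal libraries, a 105-fold range, Socs2 20.2-fold from 1.06 to 21.4 FPKM, and Igfbp1 14.5-fold from 82.6 to 1200.3 FPKM. Their SDs of log2(FPKM + 1) over these 24 libraries were 1.84, 1.22 and 1.02, beside a median of 0.19 over all genes tested in fetuses. By this SD they stood at percentiles 99.7, 99.2 and 98.8, whereas Igf1 and Ghr, with SDs of 0.30 and 0.35, stood at 79.9 and 86.0. The spread was wide within a single time. At ZT12 the 3 CPS fetuses had 14.9, 110.1 and 535 FPKM of Igfbp2 and the 3 CON fetuses 18.1, 247 and 736. Socs2 in the same libraries was at 1.57, 6.20 and 20.8 FPKM in CPS fetuses and at 1.39, 15.3 and 16.7 in CON fetuses. The low, middle and high libraries at that time were thus the same for both genes in each arm.

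Across the 24 fetal libraries log2 levels of Socs2 and Igfbp2 had Pearson r = 0.93 and Spearman rho = 0.95 (permutation p = 1e-05 for each, the smallest that 100000 permutations can give; adjusted p = 1.8e-05 and 2.2e-05 over a family of 11 partners chosen after the values were seen). Without the 2 libraries farthest from the median of Igfbp2, r was 0.92, and within CPS and CON fetuses (n = 12 each) it was 0.90 and 0.96. Igfals had r = 0.92 and rho = 0.93 with Igfbp2 (permutation p = 1e-05, adjusted p = 1.8e-05), although its own range was 3.78-fold. G6pc, the glucose-6-phosphatase of gluconeogenesis, had r = 0.94 and rho = 0.96 with the same p, and the other 5 members had r from 0.56 (Igf1) to 0.79 (Igfbp4 and Ghr). All 11 partners had an adjusted p under 0.05. Each p sets a pair against no correlation at all. The share of all genes that follow Igfbp2 as closely was not counted, so the p do not set these partners apart from other genes.

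Sums of markers of 3 cell types moved with Igfbp2 too. The other marker lists, hepatoblast markers among them, were not set against it. The hepatocyte marker sum had r = 0.89 and rho = 0.90 with Igfbp2 and the erythroid marker sum r = -0.87 and rho = -0.91, each with permutation p = 1e-05. The hepatocyte sum was mostly Alb, the albumin mRNA. Medians of Alb were 26847 FPKM in CPS and 30348 in CON fetuses, beside medians of the sum of 36291 and 42689. Its r thus describes mainly that 1 transcript. The sum of Kupffer cell markers had r = 0.77 and rho = 0.76 (permutation p = 2e-05 each, adjusted p = 2.7e-05 and 3.1e-05), 0.74 without the 2 farthest libraries, and 0.65 and 0.91 within CPS and CON fetuses. Without the 2 farthest libraries r for hepatocyte and erythroid markers was 0.88 and -0.85, and within CPS and CON fetuses they were 0.81 and 0.95 for hepatocyte and -0.83 and -0.97 for erythroid markers. The erythroid sum ran from 1072 to 2464 FPKM in CPS fetuses and from 1039 to 2158 in CON fetuses. The part of these cell types in the spread was not tested, and all points share the scaling factor of their library.

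**Figure D2:**
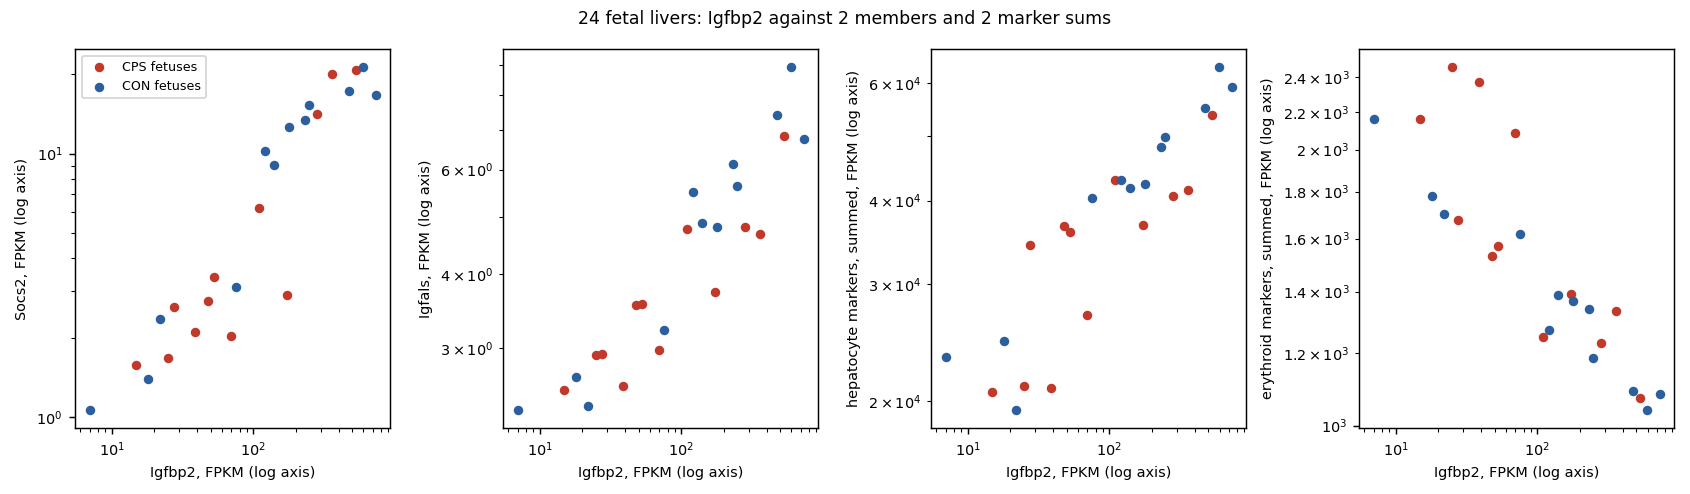
Levels of Socs2, Igfals, the hepatocyte marker sum and the erythroid marker sum against Igfbp2 in the 24 fetal libraries, FPKM on log axes, CPS fetuses in red and CON fetuses in blue. Socs2, Igfals and the hepatocyte sum climb with Igfbp2 (r of 0.93, 0.92 and 0.89) and the erythroid sum declines (r = -0.87) in both arms.

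Against this spread, no gene of the axis passed the test between CPS and CON fetuses, where 3.92% of 11534 genes passed, 2.37% higher and 1.55% lower, and none had an unadjusted p under 0.05. All 8 fitted differences were below 0, with a median of -0.24 beside -0.01 over all genes. Ghr had the smallest adjusted p, at 16.3 ± 3.5 FPKM in CPS fetuses and 19.8 ± 4.6 in CON fetuses, a log2 difference of -0.26 (95% interval -0.53 to 0.01, adjusted p = 0.246). The intervals of Igfbp2 (-2.03 to 0.89) and Socs2 (-1.63 to 0.32) were the widest of the 8. The hepatocyte marker sum had medians of 36291 FPKM in CPS fetuses and 42689 in CON fetuses, and the erythroid sum 1550.0 and 1354, with 0 of 8 and 0 of 7 markers passing. Elsewhere in the pathway Igfbp6 (0.875 ± 0.30 FPKM in CPS and 1.39 ± 0.39 in CON fetuses, adjusted p = 0.0243) and Socs1, another inhibitor of cytokine receptors (0.569 ± 0.11 and 1.07 ± 0.40 FPKM, adjusted p = 0.00575), were lower in CPS fetuses. These were 1 of 11 and 1 of 16 genes tested in their lists.

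In mothers the shifted schedule went with more Ghr mRNA. At ZT0 the CPS mothers had 1868, 1009.8 and 987 FPKM and the CON mothers 389.6, 1373 and 1046. At ZT6 they had 1429, 632 and 1101 FPKM in CPS and 559.9, 387 and 344 in CON mothers, at ZT12 1335, 1394 and 875 against 1293, 729.8 and 861, and at ZT18 1501, 924 and 1093 against 405, 727 and 588. The groups did not overlap at ZT6 and ZT18 and overlapped at ZT0 and ZT12. Over all times Ghr was 1.74-fold higher in CPS mothers (log2 change 0.80 ± 0.20 SE, 95% interval 0.38 to 1.22, adjusted p = 0.0228, above the CON mean of the same ZT in 11 of 12 libraries). It was the only 1 of the 8 that passed, where 7.87% of 10680 genes passed, 3.43% as higher and 4.45% as lower.

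Igfbp4 averaged 919 ± 88 FPKM in CPS mothers and 759.5 ± 166 in CON mothers, a log2 change of 0.30 (adjusted p = 0.0512, above in 9 of 12), and Igf1 160.3 ± 26 and 132 ± 23 FPKM, a change of 0.28 (adjusted p = 0.0682, above in 10 of 12). Neither passed. Igfbp4 passed when any 1 of 5 libraries was left out, the CON mothers ZT0 replicate 2 (adjusted p = 0.0292), ZT0 replicate 3 (0.0496) and ZT12 replicate 1 (0.0447) and the CPS mothers ZT0 replicate 2 (0.0289) and ZT18 replicate 1 (0.0369). Without that last library Igf1 passed too (adjusted p = 0.0352). Socs2, the feedback inhibitor, averaged 22.3 ± 9.8 FPKM in CPS mothers and 20.5 ± 9.9 in CON mothers (log2 change 0.12, interval -0.28 to 0.52), and Igfals 69.2 ± 8.7 and 62.5 ± 14 FPKM (0.17, interval -0.01 to 0.34). Igfbp1, Igfbp2 and Igfbp3 had adjusted p of 0.985, 0.521 and 0.292.

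**Figure D3:**
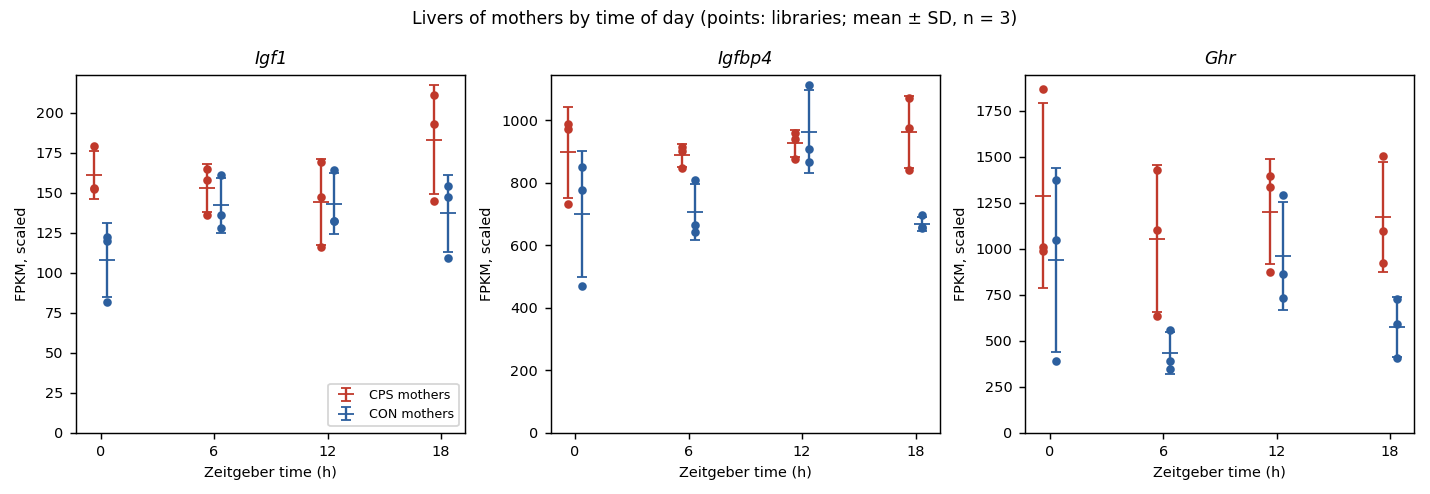
FPKM of Igf1, Igfbp4 and Ghr in maternal liver by ZT, 1 point per library and bars for mean ± SD (n = 3), with CPS mothers in red left of CON mothers in blue. CPS libraries of Ghr lie above all CON libraries at ZT6 and ZT18 and mix with them at ZT0 and ZT12.

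Igfbp5, a carrier outside the 8, was the only 1 of 6 tested IGF ligands, receptors and carriers that passed in mothers (5.07 ± 2.3 FPKM in CPS and 2.88 ± 2.3 in CON mothers, adjusted p = 0.0250). Ptpn6, a phosphatase that acts on JAK2, was the only 1 of 15 growth hormone and STAT5 signalling genes, lower in CPS mothers (6.16 ± 1.3 and 7.65 ± 1.0 FPKM, adjusted p = 0.00545). Of liver genes that depend on the sex-specific pattern of growth hormone, Slco1a1 (1 of 10 male-biased genes) and Sult3a1 (1 of 14 female-biased genes) were both higher in CPS mothers, by 0.88 and 1.31 on the log2 scale (adjusted p = 0.0273 and 0.0185). Beside these results, 6 of 10 endothelial markers were lower in CPS mothers, with a summed level of 44.2 to 88.3 FPKM in CPS and 60.0 to 84.2 in CON mothers. Of all genes 4.45% were lower there. Of 8 stress markers 3 were lower, with a sum of 57.6 to 231 FPKM in CPS and 63.1 to 638 in CON mothers, and no marker of either list was at 0 throughout an arm. Their part in the higher Ghr level was not tested, and 0 of 8 hepatocyte markers passed.

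The comparisons of offspring share 4 arms, so their values are given side by side and are not independent of each other. In adult male offspring on the high-fat diet, those of CPS mothers had less Igf1, Igfals and Igfbp2 mRNA than those of CON mothers. Igfbp2 had values of 97.3, 86.8 and 105 FPKM at ZT0 in CPS high-fat offspring, against 161, 307 and 285 in CON high-fat offspring. At ZT6 the CPS livers had 202, 234 and 227 FPKM and the CON livers 263, 480.4 and 458, at ZT12 81.2, 132 and 158 against 427, 234 and 182, and at ZT18 178, 206 and 46.2 against 393, 332 and 437. The groups did not overlap at any of the 4 times. Igfbp2 was 2.36-fold lower in CPS high-fat offspring (log2 change -1.24 ± 0.19 SE, interval -1.63 to -0.85, adjusted p = 3.51e-06, 12 of 12 libraries below the CON mean). Without the library that stands apart the change was -1.31 (adjusted p = 1.74e-06).

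Igf1 had a lowest, median and highest value of 92.9, 124 and 166 FPKM in CPS high-fat offspring and 133, 168 and 236 in CON high-fat offspring. The ranges overlapped, but all 12 CPS libraries lay below the CON mean of their ZT. Igf1 was 1.39-fold lower (log2 change -0.47 ± 0.09 SE, adjusted p = 4.88e-05, and -0.51 with adjusted p = 2.01e-05 without the library that stands apart). Igfals averaged 35.5 ± 11 FPKM in CPS high-fat and 43.7 ± 8.0 in CON high-fat offspring (log2 change -0.32 ± 0.11 SE, adjusted p = 0.0169, below in 10 of 12, and -0.36 with adjusted p = 0.00824 without that library). These 3 were the members that passed, all lower, where 47.8% of 10943 genes passed, 26.1% as higher and 21.7% as lower. A count of 3 in 8 lies near the share over all genes and is not a result about the 8. The median of the 8 was -0.27 beside 0.01 over all genes.

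The size of the Igf1 and Igfals changes rests on scaling. In values as deposited all genes together were higher in CPS high-fat offspring, with a median log2 change of 0.21. On that scale Igf1 changed by -0.21 (adjusted p = 0.0404), and Igfals (-0.07, adjusted p = 0.586) no longer passed. Relative to that median Igf1, Igfals and Igfbp2 stood at -0.42, -0.28 and -1.18, close to the -0.48, -0.33 and -1.25 of the scaled values. Igfals also missed the threshold once trends with GC content and transcript length were removed (adjusted p = 0.169), where Igf1 changed by -0.78.

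Igfbp4 averaged 509.9 ± 103 FPKM in CPS high-fat and 595 ± 131 in CON high-fat offspring (adjusted p = 0.0729), and passed without the CON library ZT12 replicate 2 (log2 change -0.30, adjusted p = 0.00466). Without the library that stands apart its change was -0.23, near the -0.22 with it (adjusted p = 0.0636). Socs2 had a lowest, median and highest value of 0.499, 2.62 and 11.7 FPKM in CPS high-fat and 0, 6.48 and 22.8 in CON high-fat offspring, the 0 being in the library that stands apart. Its log2 change was -0.67 (adjusted p = 0.138), and -0.90 without that library, which passed (adjusted p = 0.0310). Ghr averaged 201 ± 16 FPKM in CPS high-fat and 188 ± 35 in CON high-fat offspring (log2 change 0.12, interval -0.11 to 0.34, and 0.08 without that library). In values as deposited, where the median of all genes was 0.21, the change of Ghr was 0.38 and passed (adjusted p = 0.00119), which is 0.17 above that median, beside 0.10 in the scaled values. Igfbp1 had a change of 0.53 (interval -0.35 to 1.41), and 0.55 without the library that stands apart. Igfbp3 had a change of 0.09 (interval -0.32 to 0.50), and without that library, where it is listed at 0, the sign turned, to -0.13 (adjusted p = 0.422).

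On the low-fat diet the maternal schedule gave no member that passed, and none had an unadjusted p under 0.05, where 0.00914% of genes passed, 1 gene that was higher. Igf1 averaged 150.3 ± 36 FPKM in CPS low-fat and 151 ± 29.9 in CON low-fat offspring, a log2 change of -0.02 with an interval of -0.20 to 0.15. The fitted decrease of 0.47 seen on the high-fat diet lies outside that interval. Igfbp2 averaged 321 ± 136 FPKM in CPS low-fat and 338 ± 94 in CON low-fat offspring, a change of -0.13 with an interval of -0.52 to 0.26. The intervals of Igfbp1 (-0.52 to 1.24) and Socs2 (-0.96 to 0.55) were much wider than those of Ghr (-0.20 to 0.25) and Igfbp4 (-0.20 to 0.21).

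The diet effect itself differed with the maternal schedule for Igf1 and Igfbp2. In offspring of CPS mothers, Igfbp2 was 2.24-fold lower on the high-fat than on the low-fat diet, at 46.2, 145 and 234 FPKM (lowest, median, highest) on high-fat and 155, 288 and 608 on low-fat. The log2 change was -1.16 ± 0.19 SE (adjusted p = 4.73e-05, 12 of 12 high-fat libraries below the low-fat mean of their ZT), and it was the only member that passed, where 22.9% of genes passed, 11.3% higher and 11.6% lower. In offspring of CON mothers Igfbp2 was at 161, 319 and 480.4 FPKM on high-fat and 182, 330.5 and 511 on low-fat, a change of -0.06 with an interval of -0.45 to 0.33 (0.01 without the library that stands apart). The difference between the diet effects (CPS minus CON) was -1.10 ± 0.27 for Igfbp2 (adjusted p = 0.00429) and -0.45 ± 0.13 for Igf1 (adjusted p = 0.00986). These 2 of the 8 passed, both lower, where 23.5% of genes passed, 13.5% as higher and 10.0% as lower, so the count is near the share over all genes. Without the library that stands apart the differences were -1.17 (adjusted p = 0.00208) and -0.48 (adjusted p = 0.00475), and in values as deposited that of Igf1 was -0.24 (adjusted p = 0.138).

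For Igf1 the 2 diet effects had opposite signs and neither passed alone. It averaged 127 ± 22 FPKM on high-fat and 150.3 ± 36 on low-fat in CPS offspring (log2 change -0.22, adjusted p = 0.0743), and 178 ± 38 and 151 ± 29.9 FPKM in CON offspring (0.23, adjusted p = 0.0701). The first passed without the CPS low-fat library ZT0 replicate 1 (adjusted p = 0.0415) or ZT6 replicate 3 (0.0476). The second passed without the CON high-fat library ZT0 replicate 1 (0.0378) or the CON low-fat library ZT6 replicate 1 (0.0142) or ZT18 replicate 1 (0.0280). For Igfals the difference between diet effects was -0.37 (adjusted p = 0.0860), and -0.40 (adjusted p = 0.0506) without the library that stands apart. It passed without any 1 of 4 others: the CON low-fat ZT0 replicate 1 (0.0475), the CPS low-fat ZT6 replicate 1 (0.0329), and the CPS high-fat ZT0 replicate 3 (0.0426) and ZT18 replicate 1 (0.0477).

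Igfals was the only member that passed between diets in CON offspring, where 14.2% of genes passed, 6.72% higher and 7.53% lower. It averaged 43.7 ± 8.0 FPKM on high-fat and 34.6 ± 9.1 on low-fat (log2 change 0.35 ± 0.11 SE, adjusted p = 0.0341, above in 11 of 12). Without the library that stands apart it was 0.38 (adjusted p = 0.0192). This call was fragile. It was lost without any 1 of the CON high-fat libraries ZT0 replicate 3, ZT6 replicate 2 and ZT12 replicate 2, or of the CON low-fat libraries ZT0 replicates 2 and 3, ZT6 replicates 2 and 3, ZT12 replicate 3 and ZT18 replicates 2 and 3, with adjusted p of 0.0538 to 0.0660. It was also lost with no filter on low values (0.0533), in values as deposited (0.0979) and without GC and length trends (0.131). In CPS offspring Igfals had a change of -0.02 (interval -0.25 to 0.21).

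Igfbp1, the insulin-repressed carrier, was at similar ratios between diets under both schedules without passing in either. It had a lowest, median and highest value of 3.30, 15.4 and 66.4 FPKM in CPS high-fat and 11.8, 41.2 and 113 in CPS low-fat offspring, a log2 change of -1.05 (adjusted p = 0.0783, 11 of 12 below). In CON offspring it was at 4.12, 9.79 and 25.5 FPKM on high-fat and 5.47, 29.2 and 121 on low-fat, a change of -1.21 (adjusted p = 0.0547, 11 of 12 below), and of -1.24 (adjusted p = 0.0556) without the library that stands apart. The difference between the 2 effects was 0.17 with an interval of -1.08 to 1.41, and 0.19 without that library. In CPS offspring Igfbp1 passed without the low-fat library ZT6 replicate 2 (adjusted p = 0.0367) or the high-fat library ZT0 replicate 2 (0.0479) or ZT18 replicate 2 (0.0242). In CON offspring it passed without the low-fat libraries ZT0 replicate 1 (0.0140), ZT6 replicate 1 (0.0471) or ZT12 replicate 1 (0.0276), or the high-fat libraries ZT0 replicate 2 (0.0438), ZT6 replicate 3 (0.0413) or ZT12 replicate 1 (0.0417).

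Of the remaining genes, Igfbp3 had diet changes of -0.50 in CPS (adjusted p = 0.0679) and -0.37 in CON offspring (0.208), and Ghr of 0.27 (0.0801) and 0.17 (0.294). Without the CON high-fat library that stands apart the CON change of Igfbp3 was -0.14 (0.487) and that of Ghr 0.21 (0.186). In CPS offspring Igfbp3 passed without the low-fat library ZT18 replicate 3 (0.0325) or the high-fat library ZT0 replicate 2 (0.0465). Ghr passed there without the low-fat library ZT0 replicate 3 (0.0416), ZT6 replicate 2 (0.0329) or ZT18 replicate 3 (0.0425), and its 12 high-fat libraries all lay above the low-fat mean of their ZT. Igfbp4 had changes of 0.05 in CPS and 0.27 in CON offspring (adjusted p = 0.746 and 0.0586), the second passing without the CON low-fat library ZT6 replicate 1 (0.0213) or the CON high-fat library ZT12 replicate 2 (0.00710), and standing at 0.29 (0.0541) without the library that stands apart. Socs2 had changes of -0.75 (adjusted p = 0.149) in CPS and -0.29 (0.625) in CON offspring, the second being -0.05 (0.933) without that library, where Socs2 is listed at 0.

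**Figure D4:**
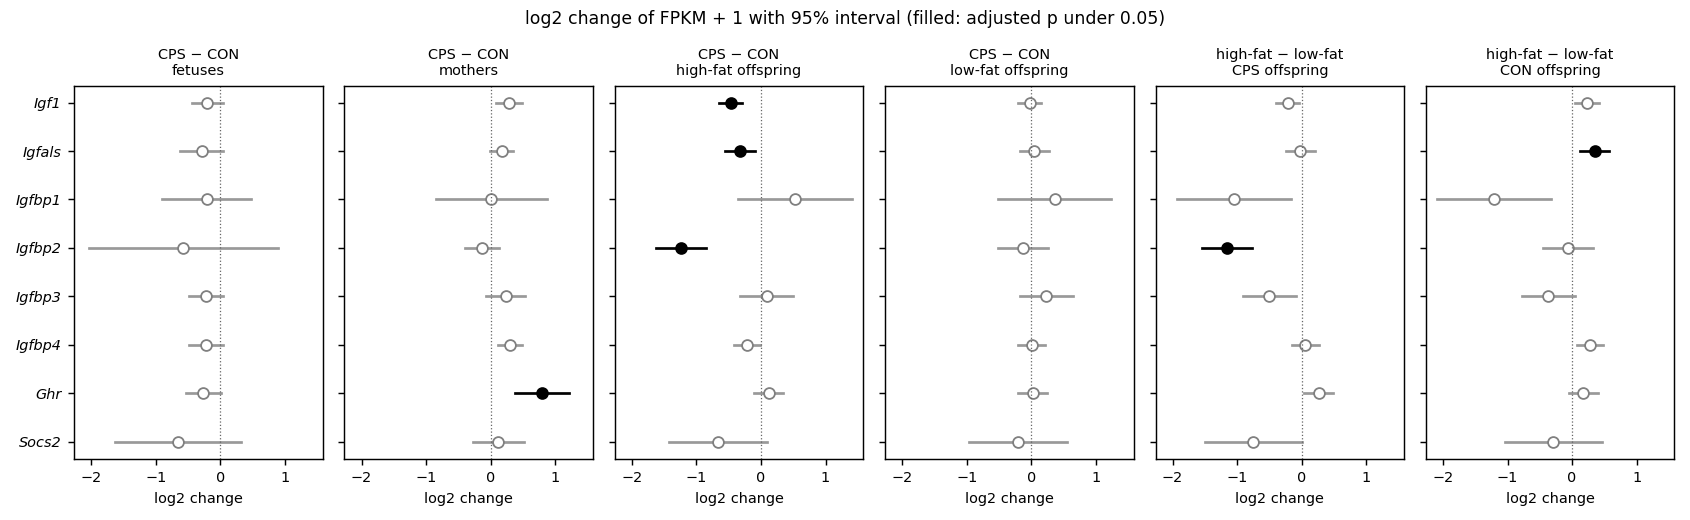
Fitted log2 differences of the 8 genes with 95% intervals in 6 comparisons, the first named arm over the other, with filled points for those that passed. On the high-fat diet Igf1, Igfals and Igfbp2 lie below 0 (-0.47, -0.32 and -1.24) in offspring of CPS against CON mothers, and on the low-fat diet every interval holds 0.

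Other genes of the pathway in the high-fat comparison of CPS with CON offspring moved in both directions. Of 6 tested IGF ligands, receptors and carriers, Igf2r, the receptor that clears IGF2, and Insr, the insulin receptor, were higher in CPS offspring by 0.40 and 0.28 on the log2 scale, and the carriers Igfbp6 and Igfbp7 had changes of -1.11 and -0.60. Of 16 genes of growth hormone and STAT5 signalling, 8 were higher and 0 lower, where 47.8% of all genes passed, 26.1% as higher and 21.7% as lower, with Irs2, an insulin and IGF receptor substrate, at 1.15 ± 0.48 FPKM in CPS and 0.416 ± 0.29 in CON high-fat offspring, Prlr at 23.0 ± 5.1 and 15.1 ± 4.0, Stat5b at 8.42 ± 1.8 and 6.09 ± 1.5, and Jak2 at 2.76 ± 0.36 and 2.07 ± 0.24. This count was 12 higher in values as deposited, 6 higher with upper-quartile scaling, and 2 higher and 1 lower once GC and length trends were removed. Of 14 male-biased growth hormone-dependent genes 1, Selenbp2, was lower (334 ± 365 and 668 ± 369.7 FPKM), and of 5 tested female-biased genes 2 were higher, Cyp2b9 (6.22 ± 6.8 and 0.980 ± 1.2 FPKM) and Acot3 (8.06 ± 7.5 and 2.69 ± 3.3 FPKM).

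Of 8 genes that insulin represses 3 passed as higher and 0 as lower in CPS high-fat offspring, and of 8 that it induces 5 and 0, beside 26.1% higher and 21.7% lower over all genes, with G6pc at 145 ± 68 FPKM in CPS and 87.5 ± 37 in CON high-fat offspring and Scd1, a fatty acid desaturase, at 1448 ± 832 and 685 ± 589. Between diets, 4 of 8 insulin-induced genes were lower on high-fat in CPS offspring and 5 of 8 in CON offspring. Over all genes 11.6% and 7.53% were lower in these 2 comparisons. The insulin-induced genes were led by Pnpla3 in CPS (0.419 ± 0.38 on high-fat and 6.41 ± 7.6 FPKM on low-fat) and Fasn in CON offspring (40.8 ± 29 and 117 ± 91 FPKM). On the low-fat diet no gene of any pathway list passed between CPS and CON offspring.

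Markers passed in the high-fat comparison as well, where 26.1% of all genes passed as higher and 21.7% as lower. Counts from such short lists are a description and not a result about cell makeup. The endothelial sum was 38.6 to 74.8 FPKM in CPS and 54.4 to 85.4 in CON high-fat offspring, with 4 of 10 lower. The hepatocyte sum was 37646 to 60096 FPKM in CPS and 46239 to 79811 in CON high-fat offspring, with 2 of 8 markers higher (Apob and Cps1) and 3 lower (Ttr, Apoa1 and Fah). Of 5 cholangiocyte markers 2 were lower, with sums of 14.8 to 38.1 and 21.8 to 78.5 FPKM, and of 3 tested erythroid markers 2 were higher. None of these markers was at 0 throughout an arm, and their part in the changes of Igf1, Igfals and Igfbp2 was not tested.

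Time of day was visible in Igfbp4 above all. In CPS low-fat offspring Igfbp4 was at 377, 351 and 314 FPKM at ZT0, at 276, 409.6 and 445 at ZT6, at 768, 790.0 and 739 at ZT12 and at 576, 396 and 725 at ZT18, and the ZT12 values lay above all others (adjusted p = 7.96e-05 for an F test with 3 degrees of freedom). In CON low-fat offspring it was at 364, 351 and 313, then 542, 347 and 358, then 695, 653 and 620.3, then 567, 655 and 526 FPKM at the same times (adjusted p = 0.00350). Both low-fat groups were lowest around lights on and highest around lights off. In CPS high-fat offspring Igfbp4 averaged 361 FPKM at ZT0 and 622 at ZT12 (adjusted p = 0.0935), and in CON high-fat offspring 456 and 619 (adjusted p = 0.116). The test in CON high-fat offspring passed without the CON high-fat library ZT12 replicate 2 (adjusted p = 0.0342), and had an adjusted p of 0.354 without the library that stands apart.

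Over the 8 genes, 4 passed for time of day in CPS low-fat offspring, where 38.9% of genes passed, and 1 in CON low-fat offspring, where 9.27% passed. On the high-fat diet 0 passed in CPS offspring (3 at an unadjusted p under 0.05), where 2.55% passed, and 1 in CON offspring, where 16.9% passed. Igf1 in CPS low-fat offspring was at 107, 149 and 136 FPKM at ZT0, 104, 128 and 89.6 at ZT6, 189.7, 186 and 169 at ZT12 and 187, 172 and 185 at ZT18, so that all values of the 2 later times lay above all of the 2 earlier ones (adjusted p = 0.00110). In values as deposited that test did not pass (adjusted p = 0.221), and 1 of the 8 genes passed in this arm, against 4. The scaling factors of this arm split by time as well. They were 1.02 to 1.31 at ZT0 and ZT6 and 0.744 to 0.905 at ZT12 and ZT18. The number of time of day calls in this arm thus depended on scaling, and the part of scaling in each call was not tested. In CON low-fat offspring the factors were 0.977 to 1.23 at ZT0 and 0.887 to 0.947 at ZT12, and their part in the Igfbp4 call there was not tested either. In CON high-fat offspring Igf1 was at 133, 156 and 196 FPKM at ZT0, 143, 134 and 149 at ZT6, 176, 161 and 211 at ZT12 and 236, 235 and 208 at ZT18 (adjusted p = 0.0365). Leaving out 1 of 6 libraries there ended the call: ZT0 replicate 1, the library that stands apart (0.0539), ZT6 replicates 1, 2 and 3 (0.0607, 0.0718 and 0.0537) and ZT18 replicates 1 and 2 (0.0920 and 0.0882).

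Igfals in CPS low-fat offspring was at 37.7, 35.4 and 31.9 FPKM at ZT0, 16.2, 32.2 and 26.6 at ZT6, 50.3, 48.8 and 36.2 at ZT12 and 43.7, 29.9 and 42.8 at ZT18 (adjusted p = 0.0137). It rested on the lowest library, and without ZT6 replicate 1 the adjusted p was 0.179. Igfbp2 there was at 234, 203 and 155 FPKM at ZT0 and 453, 434 and 412 at ZT12 (adjusted p = 0.0489), and leaving out any 1 library other than ZT18 replicate 2 gave adjusted p of 0.0542 to 0.135. Other tests passed when 1 library was left out: Igfbp3 in CON high-fat offspring without ZT0 replicate 2 (0.0159) or replicate 3 (0.0158), Ghr in CPS low-fat offspring without ZT6 replicate 2 (0.0405), and Igfals and Ghr in CON low-fat offspring without ZT0 replicate 1 (0.0323 and 0.00835).

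Direct tests of a difference in daily profile passed for none of the 8 genes. Between diets this held in CPS offspring, where 0.137% of genes passed, and in CON offspring, where 0.0274% passed, with 3 and 1 of the 8 at an unadjusted p under 0.05. Between schedules it held on high-fat, where 0% passed, and on low-fat, where 0.0457% passed, with none at that unadjusted p. A difference in the daily profile of these genes between offspring arms was thus not shown.

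**Figure D5:**
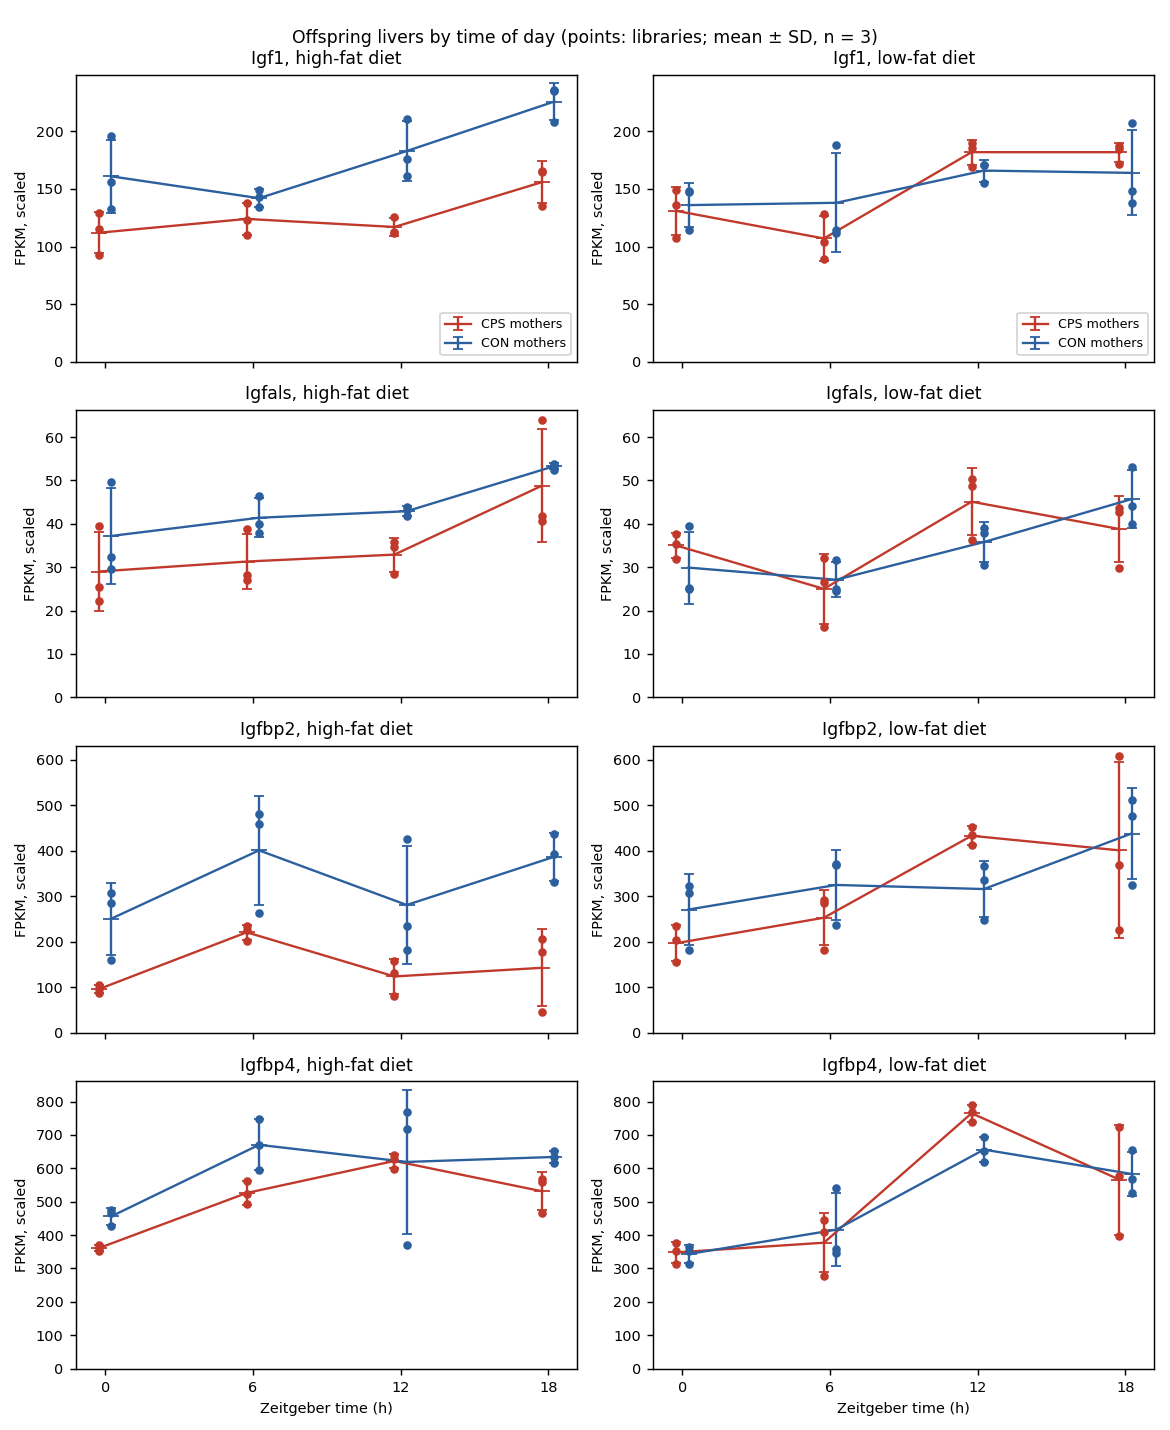
FPKM of Igf1, Igfals, Igfbp2 and Igfbp4 by ZT in offspring, high-fat diet on the left and low-fat on the right, 1 point per library, lines and bars for mean ± SD (n = 3), with offspring of CPS mothers in red and of CON mothers in blue. Igfbp4 is highest at ZT12 in both low-fat groups, and the CPS high-fat points of Igfbp2 lie below the CON points at each ZT.

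In mothers and fetuses none of the 8 genes passed for time of day. In CPS mothers 1.99% and in CON mothers 2.99% of genes passed, with 0 and 3 of the 8 at an unadjusted p under 0.05, the 3 being Igfals, Igfbp4 and Ghr. In CON mothers Igfals averaged least at ZT0, with 36.4, 57.0 and 45.8 FPKM, and had 75.2, 68.6 and 68.9 at ZT18 (adjusted p = 0.118). The daily profile differed between CPS and CON mothers for 1.58% of genes and for none of the 8, with 1 at an unadjusted p under 0.05. In fetuses 0% of genes passed for time of day over both arms (824 at an unadjusted p under 0.05, among them Igfbp1) and 0% for a difference in profile (398, none of them a member).

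The STAT5 genes, which are not among the 8 and are described here after their values were seen, varied with time in CPS mothers. Of 15 tested genes of growth hormone and STAT5 signalling 3 passed there, Stat5a and Stat5b (adjusted p = 0.000820 each) and Ptpn6 (0.0217), and 0 passed in CON mothers. The shares over all genes were 1.99% in CPS and 2.99% in CON mothers. Stat5a was at 3.33, 2.68 and 2.81 FPKM at ZT0, 5.10, 4.72 and 5.41 at ZT6, 1.96, 1.85 and 2.24 at ZT12 and 2.18, 1.98 and 3.28 at ZT18 in CPS mothers, against 4.02, 3.94 and 3.29, then 3.55, 3.76 and 2.62, then 2.93, 2.54 and 2.98, then 3.35, 3.79 and 4.11 in CON mothers. For Stat5a all 3 CPS libraries at ZT6 lay above every other library of mothers. Stat5b at ZT6 was at 15.6, 10.4 and 18.8 FPKM in CPS and 8.56, 10.7 and 8.33 in CON mothers, and at ZT12 at 4.99, 5.11 and 4.96 against 6.12, 6.52 and 6.83. These ZT12 values of CON mothers lay below every other CON mother library, so low Stat5b at ZT12 was not particular to CPS mothers. The daily profile differed between CPS and CON mothers for Stat5a and Stat5b, 2 of the 15 genes (adjusted p = 0.0180 and 0.0221), where 1.58% of all genes passed. The 2 are near-identical neighbours whose reads may be shared.

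These calls had limits. The profile call of Stat5a was lost without the CPS mother ZT6 replicate 1 (adjusted p = 0.0541) or replicate 3 (0.0706) or the CON mother ZT6 replicate 3 (0.0658). That of Stat5b was lost without the CPS mother ZT6 replicate 1 (0.0760) or replicate 3 (0.0869), or the CON mother ZT6 replicate 1 (0.0720) or 3 (0.0728) or ZT18 replicate 2 (0.0508) or ZT18 replicate 3, the last with an adjusted p at the threshold itself. The time of day call of Ptpn6 was lost without any 1 of the 3 CPS libraries at ZT6 (0.161, 0.0511 and 0.121). With a cosine fit, time of day in CPS mothers passed for none of the 3 (0.0721 for Stat5a, 0.156 for Stat5b and 0.263 for Ptpn6). The profile calls of Stat5a and Stat5b were lost with that fit too (adjusted p = 0.131 and 0.240).

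Across the 16 groups of offspring the 8 genes fell along more than 1 pattern. Log2 group means of Igf1 and Igfals had a Pearson r of 0.83, those of Igfbp4 and Ghr 0.76, and those of Igfbp4 and Igfals 0.71, while Igfbp1 was at -0.39 with Igfals and -0.43 with Ghr, and Socs2 at 0.47 with Igf1 and 0.16 with Igfals. The gene with the nearest pattern over the same 16 groups was Dap for Igf1 (r = 0.94), Gm10658 for Igfals (0.88), Acsl5 for Igfbp1 (0.87), H2-T23 for Igfbp2 (0.90), Ms4a4d for Igfbp3 (0.91), Slc9a3r1 for Igfbp4 (0.95), Slc1a2 for Ghr (0.94) and Sat1 for Socs2 (0.89). Acp5 and Arl3 came next for Igf1, Dap and Foxa3 for Igfals, and Cetn2 and Kng2 for Igfbp2. These r describe 16 means that share libraries and scaling factors, and the highest of many genes is high by selection.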

How the data were processed

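Liver poly(A) RNA was extracted with TRIzol and made into Illumina TruSeq stranded mRNA libraries, per the labels' protocols. FPKM values were deposited in 1 table per arm, and TopHat2 2.1.1, Cufflinks 2.2.1 and mm10 are named in the submitters' processing notes. The annotation used and any filtering by the authors were not stated. Of 24883 entries, 817 that share 280 symbols were left out, which left 24066 genes.

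FPKM were divided by a median-of-ratios factor over 8433 genes above 0 in all 96 libraries. Tests used log2(FPKM + 1) in genes of at least 1 FPKM in at least 3 libraries of the fit, so fold changes of low genes are understated. limma 3.58.1 in R 4.3.3 fitted 1 mean per arm and ZT with trended variances, in separate fits of mothers, fetuses, both together, and all offspring. Calls needed a Benjamini-Hochberg adjusted p under 0.05 over all genes of each of 22 comparisons. Time of day used F tests with 3 degrees of freedom. The fits of mothers and of offspring were also run on simulated data with independent noise for each gene. Those data held no litter effect and no scaling error, so that run cannot speak to either. Figures used Python 3.11.15 and matplotlib 3.10.9.

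The members, gene lists and tests were chosen with earlier results of these data known. All 8 members are named in every comparison, and of each other list at most 4 genes that passed, those of smallest p. The 3 genes of nearest pattern were taken by Pearson r over 16 offspring groups. Depth is unknown, so no counting interval is given. Alternatives covered the pseudocount, filter, scaling, GC and length trends, replicate block, a cosine fit, the arms in the fit and each library left out. A fit without the CON high-fat library ZT0 replicate 1 was added after seeing the data.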

Additional observations from a re-analysis of the deposited data

Results flagged for a closer look

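The diet effect itself differed between offspring of CPS and CON mothers for 2 of the 8 genes, by the interaction term of the limma fit over all 48 offspring libraries, where 23.5% of all genes passed. For Igfbp2 the high-fat minus low-fat change was -1.16 in CPS and -0.06 in CON offspring on the log2 scale (adjusted p of the difference = 0.00429). For Igf1 it was -0.22 in CPS and 0.23 in CON offspring (adjusted p of the difference = 0.00986), and in values as deposited the difference for Igf1 was -0.24 and did not pass (adjusted p = 0.138).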

How the results depend on the processing

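No call of the 8 genes in a test of levels or of diet by schedule changed direction under any alternative run. The F tests of time of day and daily profile have no direction that could change. Of their 1456 results under other settings 48 changed their side of the threshold, and of 3840 with 1 library left out 68 did, and the cause was not tested. With upper-quartile scaling, and again without GC and length trends, members called became 2 in mothers (against 1) and 2 between diets in CPS and in CON offspring (against 1 each). Without the 5 offspring libraries whose correlation with their arm was under 0.95, counts became 3 between diets in CPS and 3 in CON offspring, 5 between schedules on high-fat (against 3), 4 for diet by schedule (against 2), and, for time of day, 1 in CPS high-fat (against 0) and 2 in CON low-fat offspring (against 1). In values as deposited they became 2 between diets in CPS offspring, 1 for diet by schedule, still 3 between schedules on high-fat (Ghr gained, Igfals lost), and, for time of day, 0 in CON high-fat (against 1) and 1 in CPS low-fat offspring (against 4). Without GC and length trends time of day gave 0 in CON high-fat and 2 in CON low-fat offspring. Between diets in CON offspring the count was 0 with no filter and 2 with scaling within the stage, and in CPS offspring it was 4 with only the 2 arms compared.

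With each library left out in turn the counts were 1 to 3 in mothers, 7 to 8 between fetuses and mothers in CPS animals, 1 to 3 and 0 to 4 between diets in CPS and CON offspring, 3 to 4 between schedules on high-fat, 2 to 3 for diet by schedule, and for time of day 0 to 2 in CON high-fat, 2 to 4 in CPS low-fat and 1 to 3 in CON low-fat offspring.

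Libraries of the same replicate number did not deviate together (median r of -0.05, 0.04 and -0.00 in mothers, fetuses and offspring), and each correlated best with its own number in 2 of 28, 4 of 28 and 6 of 120 pairs of groups. A replicate block changed 1 member call, that of Igfbp2 for time of day in CPS low-fat offspring (adjusted p = 0.0575, 3 called), and no other.

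Over all genes, counts moved by over 1.5 times as follows. In fetuses 452 became 190 in values as deposited and 196 without GC and length trends. Between diets in CON offspring 1559 became 2359 as deposited and 896 with only the 2 arms. Without the 5 libraries diet by schedule went to 3862 (against 2570) and time of day to 1072 in CPS high-fat (against 279), 1132 in CON high-fat (against 1846) and 2835 in CON low-fat offspring (against 1014). A cosine fit gave 77 for the profile in mothers (against 169) and 23 for CPS mothers (against 212). Other settings took the count between schedules on low-fat, 1, to 4 or less, and profile counts in offspring, 0 to 15, to between 0 and 208. Single libraries moved all-gene counts too: to 28 between schedules on low-fat (without CPS ZT0 replicate 2), to 611 and 709 for the profile between diets in CPS and CON offspring (without CPS low-fat ZT0 replicate 3, CON high-fat ZT0 replicate 3), to 373 for the profile between schedules on low-fat (without CON ZT18 replicate 1), to 507 in mothers (without CON ZT18 replicate 1), 219 and 849 in fetuses (without CON ZT6 replicate 2, CPS ZT0 replicate 3), 999 and 2643 between diets in CON offspring (without high-fat ZT12 replicates 2 and 1), and 947 and 4265 for time of day in CON high-fat offspring (without ZT12 replicate 2, ZT0 replicate 3). In values as deposited the share of calls that were higher was 9.64% in mothers (43.5% scaled), 47.4% in fetuses (60.4%), 77.9% and 76.1% between fetuses and mothers in CPS and CON animals (58.6% and 58.8%), 69.3% and 14.6% between diets in CPS and CON offspring (49.5% and 47.1%), 84.6% between schedules on high-fat (54.5%) and 87.6% for diet by schedule (57.4%). Upper-quartile scaling gave 37.8% between diets in CPS offspring and 43.9% for diet by schedule. The median of all genes moved to 0.64 and 0.55 between fetuses and mothers in CPS and CON animals, to -0.13 between diets in CON offspring and to 0.17 for diet by schedule.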
